A study of Rattus norvegicus with 2 samples.

Results

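Genes of the hypoxia response were compared between cortical neurons from rat embryos (E18) that had received a small interfering RNA against Ythdf3 (siYthdf3) and the same kind of neurons with a negative control small interfering RNA (siNC). Ythdf3 encodes a cytoplasmic protein that binds messenger RNA carrying the m6A methyl mark. The 10 genes, taken by symbol, were Hif1a, Egln3, Slc2a1, Hk2, Pgk1, Pdk1, Vegfa, Bnip3, Ndrg1 and Ddit4, among the 21224 gene rows of the deposited table, and each symbol stood on 1 row. Each group had 1 library, so differences could not be set against replicates and no test between the conditions was possible. The study's title concerns hypoxic-ischemic injury, but no label names a hypoxic sample, and dose, duration and culture conditions are not stated in the labels. The control shares the tissue and the use of a small interfering RNA, and the files hold RNA only.

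Hypoxia-inducible factor (HIF) is a dimer of an oxygen-regulated alpha subunit, such as the product of Hif1a, and a constant beta subunit, such as that of Arnt. With oxygen present, prolyl hydroxylases (the EGLN enzymes) mark the alpha subunit, and the VHL ubiquitin ligase removes it, so that much of the control acts on protein and not on messenger RNA. Without oxygen the dimer binds a short DNA core, spelled ACGTG and in some genes GCGTG, and switches on genes of glucose uptake, glycolysis, vessel growth and mitochondrial turnover. In neurons these genes are studied as part of the reply to ischemia, and several of them also answer to growth, nutrient and damage signals.

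The sequence just upstream of the genes shows where that core stands. RefSeq windows of 250 bases before a start site (build GRCr8) were matched for 8 of the 10 genes, in 9 windows. Both strands were searched, so that ACGTG also reads as CACGT on the opposite strand and GCGTG likewise as CACGC. Overlapping matches, such as those in CACGTG, counted as 1 place. A core stood in the windows of 5 genes (Hif1a, Pdk1, Slc2a1, Bnip3 and Ddit4). None stood in the windows of the other 3, which were Hk2, Vegfa and Egln3. The window of Hif1a and the second window of Vegfa lie wholly inside the gene's outermost annotated span. The cores of Hif1a are thus before the start site used but not upstream of the whole gene. Of all 33469 windows of this length, 36.7% held at least 1 core, 16.6% in the ACGTG form and 25.9% in the GCGTG form. A match is a run of letters and not a measured binding site. The windows of Pdk1 and Slc2a1, which were lower in siYthdf3, and of Bnip3 and Ddit4, whose counting intervals include no difference, are printed 5′ to 3′ on the gene's strand with the cores in capitals.
Pdk1 (chr3:77113264-77113463, plus strand, upstream of the outermost annotated start): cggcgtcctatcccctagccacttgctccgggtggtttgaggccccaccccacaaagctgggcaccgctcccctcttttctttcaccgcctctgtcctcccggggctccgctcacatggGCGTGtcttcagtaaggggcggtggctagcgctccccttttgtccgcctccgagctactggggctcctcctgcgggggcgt
Slc2a1 (chr5:138002272-138002521, plus strand): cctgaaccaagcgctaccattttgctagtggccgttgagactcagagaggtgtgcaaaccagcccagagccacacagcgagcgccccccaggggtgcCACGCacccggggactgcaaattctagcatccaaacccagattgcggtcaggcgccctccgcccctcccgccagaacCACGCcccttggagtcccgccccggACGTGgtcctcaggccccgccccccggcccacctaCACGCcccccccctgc
Bnip3 (chr1:203154963-203155212, minus strand): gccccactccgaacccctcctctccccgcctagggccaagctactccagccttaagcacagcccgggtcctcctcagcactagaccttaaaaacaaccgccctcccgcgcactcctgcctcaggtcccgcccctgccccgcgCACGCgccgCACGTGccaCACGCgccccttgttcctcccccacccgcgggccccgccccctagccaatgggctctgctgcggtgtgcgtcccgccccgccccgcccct
Ddit4 (chr20:28437038-28437287, minus strand): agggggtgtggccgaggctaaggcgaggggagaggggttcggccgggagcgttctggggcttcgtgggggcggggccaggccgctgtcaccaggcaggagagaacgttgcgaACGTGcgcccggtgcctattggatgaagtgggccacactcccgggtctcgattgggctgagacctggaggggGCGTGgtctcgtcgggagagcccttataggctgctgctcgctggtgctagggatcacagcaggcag
Pdk1 had cores 131 and 54 bases before the start site used, of which the first is in the printed stretch. Slc2a1 had 4 places, Bnip3 had 3 and Ddit4 had 2. Vegfa, also lower in siYthdf3, had no core in its windows, and no window was matched for Pgk1. Whether cores go with the differences was not tested.

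Reads assigned to genes numbered 15392218 in siNC and 22586543 in siYthdf3, or 1.47 times as many. The targeted gene, Ythdf3, was at 9.38 FPKM (fragments scaled by gene length and library total) in siNC and 6.93 FPKM in siYthdf3, a ratio of 0.739, so it was only partly lower in the library labelled as its knockdown. Wwtr1, the gene named beside Ythdf3 in the title, had a ratio of 0.475. Ratios are siYthdf3 over siNC throughout, and their 95% intervals are exact Clopper-Pearson intervals that cover counting error only. Log2 ratios were formed after 0.5 FPKM was added to both values. Over the 13172 genes whose mean reached 1 FPKM, the median log2 ratio was -0.01, with quartiles at -0.17 and 0.14.

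Ratios lay within 1.5-fold for all 10 genes and were lowest for Pgk1 (0.689) and Pdk1 (0.714). None was at least 1.5-fold lower in siYthdf3, where 3.95% of all genes were, and none was at least 1.5-fold higher, where 2.41% were. Their median log2 ratio was -0.09, with 8 genes below 0 and 2 above. Counting intervals lay below 1 for Pgk1, Pdk1, Vegfa and Slc2a1 and above 1 for 0 of the 10, against 22.2% of all genes below and 20% above. Such intervals narrow with depth. Among the 8902 genes with at least 434 reads over both libraries, the number for Pdk1, which had the fewest of the 10, the shares were 26.8% and 25.7%. The 4 genes below 1 were 2 of glucose handling, 1 of pyruvate control and 1 of vessel growth. The 6 others were Hk2, also of glucose handling, Hif1a, Egln3, Bnip3, Ndrg1 and Ddit4, and a split by function was not tested.

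**Figure D1:**
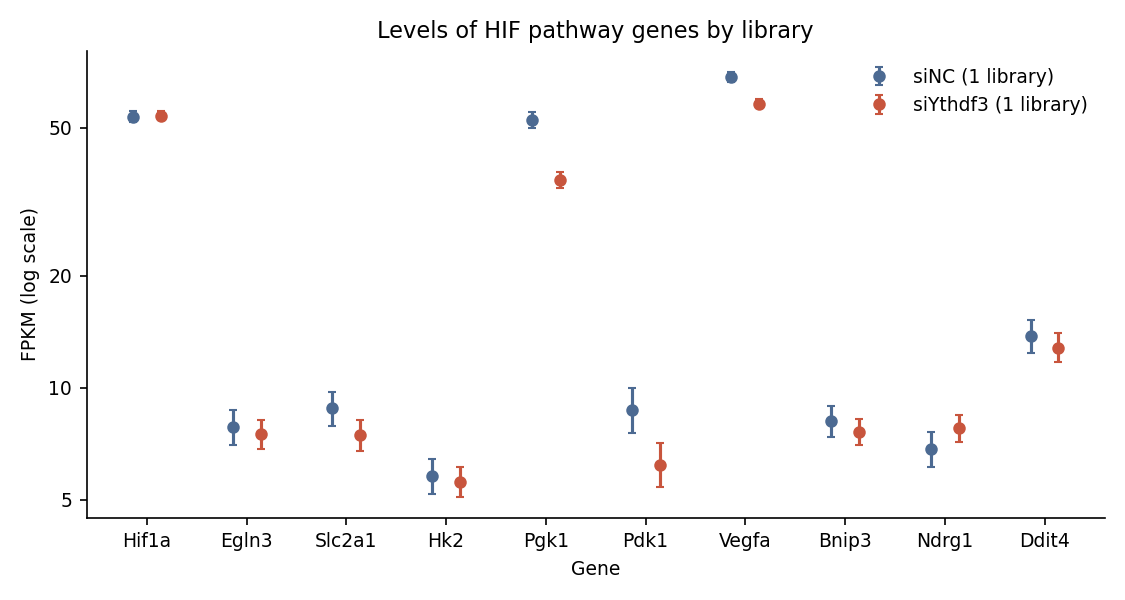
FPKM of each gene on a log axis in the siNC library (blue) and the siYthdf3 library (red), 1 library each, with exact Poisson 95% intervals that cover counting error only. Hif1a is at 53.6 and 53.9 FPKM, while Pgk1 is at 52.6 FPKM in siNC and 36.3 FPKM in siYthdf3.

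**Figure D2:**
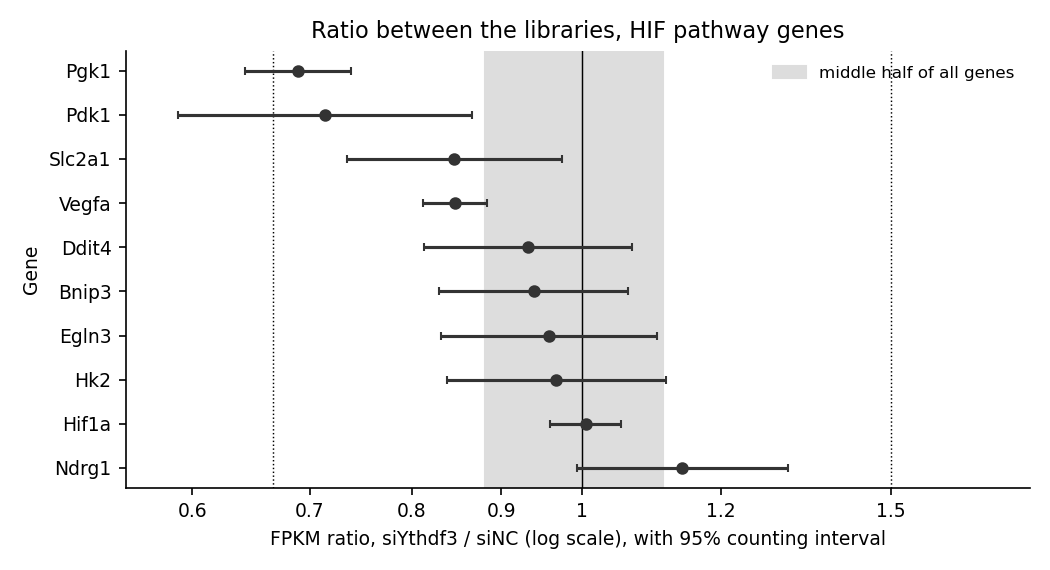
FPKM ratio of siYthdf3 over siNC on a log axis for each gene, ordered from lowest to highest, with exact 95% counting intervals. The grey band holds the middle 50% of genes whose mean reached 1 FPKM, and the dotted lines mark 1.5-fold; Pgk1 (0.689), Pdk1 (0.714), Slc2a1 (0.846) and Vegfa (0.847) lie left of the band, Ndrg1 (1.14) lies right of it, and no gene's ratio passes a dotted line.

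The factor and its oxygen sensor came out nearly level. Hif1a (ENSRNOG00000008292, chromosome 6, 92624390 to 92669261, plus strand, in the deposited table's coordinates, of an unstated build) was at 53.6 FPKM in siNC and 53.9 FPKM in siYthdf3. On 3055 and 4506 reads, the ratio was 1.01 (interval 0.960 to 1.05), and 53.2% of all genes had a lower ratio. This is the tightest interval of the 10 after that of Vegfa. Egln3, a prolyl hydroxylase that is itself a HIF target, was at 7.84 FPKM in siNC and 7.51 FPKM in siYthdf3. Its ratio was 0.958 (interval 0.832 to 1.10), and its log2 ratio of -0.06 lay inside the quartiles of all genes.

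The other genes that set HIF levels were mixed. Of 15 listed besides Hif1a and Egln3, 14 passed the filter of 1 FPKM, with a median log2 ratio of -0.08, 6 intervals below 1 and 3 above. Here and in the lists that follow, such counts stand beside 22.2% of all genes below 1 and 20% above. Arnt2, a beta subunit abundant in neurons, was at 8.04 FPKM in siNC and 9.72 FPKM in siYthdf3, a log2 ratio of 0.26. Hif1an, the asparagine hydroxylase that keeps HIF from its coactivators, was at 9.72 FPKM and 8.08 FPKM in the same order, a log2 ratio of -0.25. Elob, an adaptor of the VHL ligase, was at -0.22, and the hydroxylase Egln2 at -0.18. Both coactivators, Ep300 and Crebbp, had intervals above 1, at log2 ratios of 0.13 and 0.16. Chosen after their values were seen, like both coactivators, Epas1, the other main alpha subunit, had a ratio of 1.11 (interval 0.993 to 1.23), Arnt of 1.02, Egln1 of 0.934 and Vhl of 1.05.

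The glucose transporters Slc2a1 and Slc2a3 differed in opposite directions, while both hexokinases had intervals that include 1. Slc2a1 (ENSRNOG00000007284, chromosome 5, 132717196 to 132745416, plus strand), the glucose transporter of glia and of brain endothelium, was at 8.81 FPKM in siNC and 7.45 FPKM in siYthdf3. On 360 and 447 reads, the ratio was 0.846 (interval 0.735 to 0.975). After both libraries were rescaled to the same sum of FPKM (TPM), the interval ran from 0.761 to 1.01 and so included 1. Slc2a3, the transporter typical of neurons, went the other way, at 6.16 FPKM in siNC and 7.91 FPKM in siYthdf3, a ratio of 1.28 (interval 1.13 to 1.46). The intervals of both transporters do not overlap. The share of Slc2a1 in the FPKM of the pair was 58.9% in siNC and 48.5% in siYthdf3. Hk2, the inducible hexokinase, was at 5.79 FPKM in siNC and 5.60 FPKM in siYthdf3, with a ratio of 0.967 (interval 0.838 to 1.12). Its log2 ratio was -0.04 and changed sign to 0.0019 after rescaling to TPM, so no direction is given. Hk1, the more abundant hexokinase here, had a ratio of 1.03 (interval 0.989 to 1.08).

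Pgk1 had the lowest ratio of the 10 genes. It encodes phosphoglycerate kinase, the first step of glycolysis that returns ATP (ENSRNOG00000058249, chromosome X, 71271440 to 71287418, plus strand). It was at 52.6 FPKM in siNC and 36.3 FPKM in siYthdf3, from 1600 and 1618 reads in libraries of unequal depth. The ratio was 0.689 (interval 0.643 to 0.739), and 629 of the 13172 genes, or 4.78%, had a lower one. The log2 ratio of -0.53 was -0.46 after a trend with gene length was removed, the largest shift among the alternatives. Pgk1l1, the other row whose symbol names a copy of Pgk1, held 6 reads in siNC and 15 in siYthdf3.

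Among the other listed enzymes of glycolytic steps, intervals lay below 1 for Gpi, Aldoa, Pgam1 and Eno1 and above 1 for Aldoc alone. Pgam1, the mutase that follows Pgk1 in the pathway, was at 29.8 FPKM in siNC and 21.6 FPKM in siYthdf3, a ratio of 0.725 (interval 0.658 to 0.800). Aldoa, the aldolase of most tissues, had a ratio of 0.830 (interval 0.781 to 0.881). Aldoc, the aldolase typical of astrocytes, was higher in siYthdf3, at 17.3 FPKM in that library and 11.6 FPKM in siNC. Its log2 ratio was 0.56 and passed 1.5-fold at 0.62 after rescaling to TPM and at 0.64 after removal of the length trend. Slc16a1, a lactate transporter, was also higher, at a log2 ratio of 0.38. The phosphofructokinase genes Pfkl, Pfkm and Pfkp had log2 ratios of -0.07, 0.04 and -0.03, and all 3 counting intervals include 1. Eno1 and Eno2, the enolases, had ratios of 0.911 and 0.948, of which only the interval of Eno1 excludes 1. Aldoa, Slc2a3, Hk1 and the phosphofructokinase and enolase genes were chosen after their values were seen, to fill the pathway order.

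Over the 15 listed genes of glucose transport and glycolysis besides Slc2a1, Hk2 and Pgk1 that passed the filter, the median log2 ratio was -0.03, with 4 intervals below 1 and 4 above. Those below were Gpi (0.847), Aldoa, Pgam1 and Eno1, and those above were Slc2a3, Pfkfb3, Aldoc and Slc16a1. With Slc2a1, Hk2 and Pgk1 counted, 6 intervals lay below 1 and 4 above. Intervals of the list thus lay on both sides of 1, before the copy-named rows described next are counted. No row has the symbol Tpi1, Gapdh, Pkm or Ldha, but 4 abundant rows are named as copies of these genes (Tpi1l2, Gapdhl3, Pkml1 and Ldhal1). Each lies on the chromosome where RefSeq places the main gene and not the copy of that name. Tpi1l2 and Pkml1 also have a second row on the copy's own chromosome, at 4.10 FPKM and 3.55 FPKM in siNC. Their abundant rows are thus apart from the rows at the copies' places, and Gapdhl3 and Ldhal1 have no such second row. Which gene each abundant row counts was not checked further. The abundant Tpi1l2 row was at 82.4 FPKM in siNC and 57.0 FPKM in siYthdf3, a ratio of 0.692 (interval 0.650 to 0.736). Gapdhl3 had a ratio of 0.780, Ldhal1 of 0.768 and the abundant Pkml1 row of 0.928, and all 3 intervals lie below 1. These rows were chosen after their values were seen, and since pseudogenes of glycolytic genes can be almost identical, how reads were divided among copies is uncertain.

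**Figure D3:**
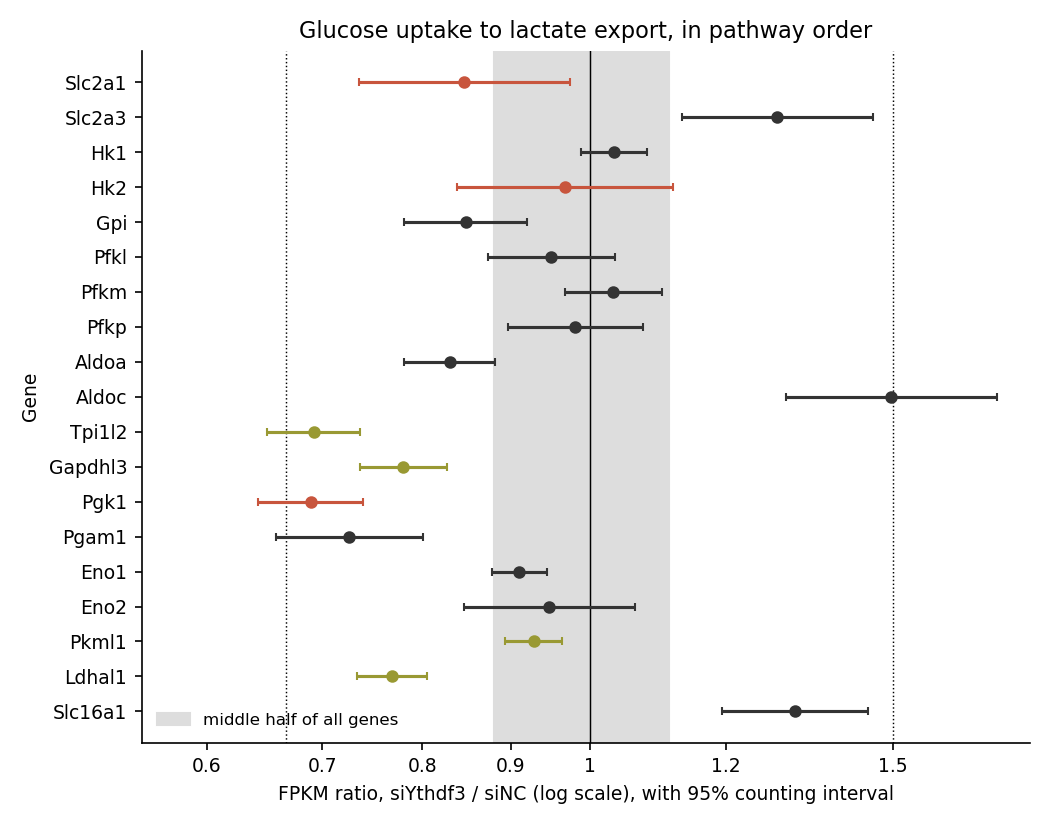
FPKM ratio of siYthdf3 over siNC on a log axis for genes from glucose uptake (top) to lactate export (bottom), with exact 95% counting intervals, the middle 50% of all genes as a grey band and dotted lines at 1.5-fold. Genes of the set of 10 are red and rows named as copies are olive; Tpi1l2, Gapdhl3, Pgk1, Pgam1 and Ldhal1 lie between 0.689 and 0.780, while Slc2a3, Aldoc and Slc16a1 lie above 1.

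Pdk1, a kinase that switches off pyruvate dehydrogenase and so keeps pyruvate out of the citric acid cycle, was the next lowest. It (ENSRNOG00000001517, chromosome 3, 56705871 to 56733038, plus strand) was at 8.72 FPKM in siNC and 6.22 FPKM in siYthdf3, from 212 and 222 reads. The ratio was 0.714 (interval 0.589 to 0.866), and 6.32% of all genes had a lower ratio. Its log2 ratio of -0.46 was -0.38 after the length trend was removed. Pdk3, a kinase of the same family, was at 6.99 FPKM in siNC and 8.19 FPKM in siYthdf3, a ratio of 1.17 (interval 1.01 to 1.37), which does not overlap that of Pdk1. The ratio of Pdk2, a gene picked after its value was known, was 0.857 (interval 0.710 to 1.04), which overlaps it.

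The subunits of the complex that these kinases act on differed among themselves. Pdha1 and Pdhb, its catalytic subunits, had log2 ratios of -0.07 and -0.05, with intervals that include 1. Dlat, its core acetyltransferase, was lower in siYthdf3, at a ratio of 0.800 (interval 0.702 to 0.912). Pdp2, a phosphatase that reverses the kinases, was at 2.75 FPKM in siNC and 3.69 FPKM in siYthdf3, a log2 ratio of 0.37. Of the 9 other genes of pyruvate entry that passed the filter, 1 interval lay below 1 and 2 above, with a median log2 ratio of -0.05.

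Vegfa, the main growth factor for vessels, had the highest level of the 10 in both libraries. It (ENSRNOG00000019598, chromosome 9, 14955300 to 14970641, plus strand) was at 68.5 FPKM in siNC and 58.0 FPKM in siYthdf3, from 3959 and 4922 reads. The ratio was 0.847 (interval 0.812 to 0.884), close to that of Slc2a1 but with a narrower interval. A lower ratio was found for 17.5% of all genes. Vegfb, a related ligand, had a ratio of 0.808 (interval 0.699 to 0.935). The receptors of vessels, Flt1 and Kdr, were at or under 0.408 FPKM in both libraries, and the coreceptors Nrp1 and Nrp2, which also bind semaphorins, had ratios of 0.998 and 1.02. Besides Vegfa, 7 listed genes of this group passed the filter, with a median log2 ratio of -0.15, 3 intervals below 1 and 0 above. Lox, an enzyme that crosslinks collagen, had a log2 ratio of -0.50, from 74 reads in siNC and 71 in siYthdf3. Adm, the vasodilator peptide adrenomedullin, was at -0.35 with an interval of the ratio from 0.470 to 1.13.

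For Bnip3, Ndrg1 and Ddit4 the counting intervals include 1. Bnip3, a receptor for the removal of mitochondria by autophagy, was at 8.13 FPKM in siNC and 7.63 FPKM in siYthdf3, a ratio of 0.939 (interval 0.830 to 1.06). Its relative Bnip3l, also picked with its value known, was at 0.952 (interval 0.888 to 1.02). Of the 5 other genes of this list that passed the filter, 3 intervals lay below 1 and 0 above, led by Fam162a at a log2 ratio of -0.25, followed by Higd1a, a mitochondrial protein of hypoxic survival, at -0.16 and Lonp1, a mitochondrial protease, at -0.10.

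Ndrg1, a stress-responsive protein also found in myelinating glia, had the highest ratio of the 10. It was at 6.84 FPKM in siNC and 7.80 FPKM in siYthdf3, a ratio of 1.14 (interval 0.994 to 1.31), with 331 and 554 reads behind the values. The interval ran from 1.03 to 1.36 after rescaling to TPM and from 1.00 to 1.32 after centring on the median of all genes, both just above 1. Ndrg3 and Ndrg4, the most abundant of the family, were at log2 ratios of 0.08 and 0.07, and Ndrg2, a marker of astrocytes, at -0.17.

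Ddit4, which restrains the growth kinase complex mTORC1 under stress, was at 13.8 FPKM in siNC and 12.8 FPKM in siYthdf3. On 368 and 503 reads, the ratio was 0.931 (interval 0.813 to 1.07). Among the 8 other listed genes around mTORC1 that passed the filter, which include the kinase, its activator Rheb and its subunit Rptor besides restraining genes, 4 intervals lay above 1 and 0 below. Their median log2 ratio was 0.04. Sesn2, a leucine-sensing inhibitor, was at 0.29, Sesn3 at 0.26, Tsc1, a subunit of the brake on mTORC1, at 0.26 and Mtor, the kinase itself, at 0.13. The 4 others, Sesn1, Tsc2, Rptor and Rheb, lay between -0.10 and -0.04, where Ddit4 was at -0.10, with intervals that include 1.

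The order of levels was the same at the top in both libraries. Vegfa, Hif1a, Pgk1 and Ddit4 led in that order, on the FPKM scale, which allows for gene length. In siNC the Poisson intervals of Hif1a and Pgk1 overlapped, at 51.8 to 55.6 FPKM and 50.1 to 55.3 FPKM, and in siYthdf3 they did not, at 52.4 to 55.5 FPKM and 34.5 to 38.1 FPKM. The 6 other genes lay between 5.79 and 8.81 FPKM in siNC and between 5.60 and 7.80 FPKM in siYthdf3, and each neighbour's interval overlapped the next. Within these 6, Slc2a1 and Pdk1 were highest in siNC, and Ndrg1 was highest in siYthdf3. Over the 10 genes the FPKM summed to 235 in siNC and 203 in siYthdf3.

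In a wider list of 100 genes of the HIF pathway, those measured had no common direction. Of the 100 listed, 96 were in the table, without Tpi1, Gapdh, Pkm and Ldha, and 80 passed the filter. Their median log2 ratio was -0.05, with 19 intervals below 1, 18 above and 43 that include 1. Over all genes, 22.2% of intervals lay below 1 and 20% above, so the counts of the list are near those shares. None was 1.5-fold apart on the scale with 0.5 FPKM added, where 3.95% of all genes were lower and 2.41% higher. The plain ratios of Gbe1 (0.644) and Lox (0.654) did pass 1.5-fold. Besides those named, Gbe1 and Gys1, of glycogen synthesis, were at log2 ratios of -0.53 and -0.33. Plod2, a collagen-modifying enzyme, was at 0.25 and the clock-linked repressor Bhlhe41 at -0.24. The other canonical targets, 20 genes without Egln3 and Ndrg1, had a median of 0.02 with 2 intervals below 1 and 4 above. Not counted in the wider list are the abundant rows named as copies of Tpi1, Gapdh, Pkm and Ldha, whose intervals all lay below 1.

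Several genes known for strong induction by hypoxia were near the floor in both libraries. Of the 16 listed genes under the filter, Car9, a carbonic anhydrase, held 8 and 9 reads in siNC and siYthdf3, Epo, the hormone erythropoietin, 3 and 5, Ankrd37 12 and 20, and Angptl4 15 and 29. For 14 of the 16 the interval includes 1. The exceptions were Flt1, with a ratio of 0.428 (interval 0.254 to 0.708), and Slc16a3, a lactate exporter of glycolytic cells, at 0.601 (interval 0.394 to 0.916). At this depth a difference in most of these genes was not detectable.

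**Figure D4:**
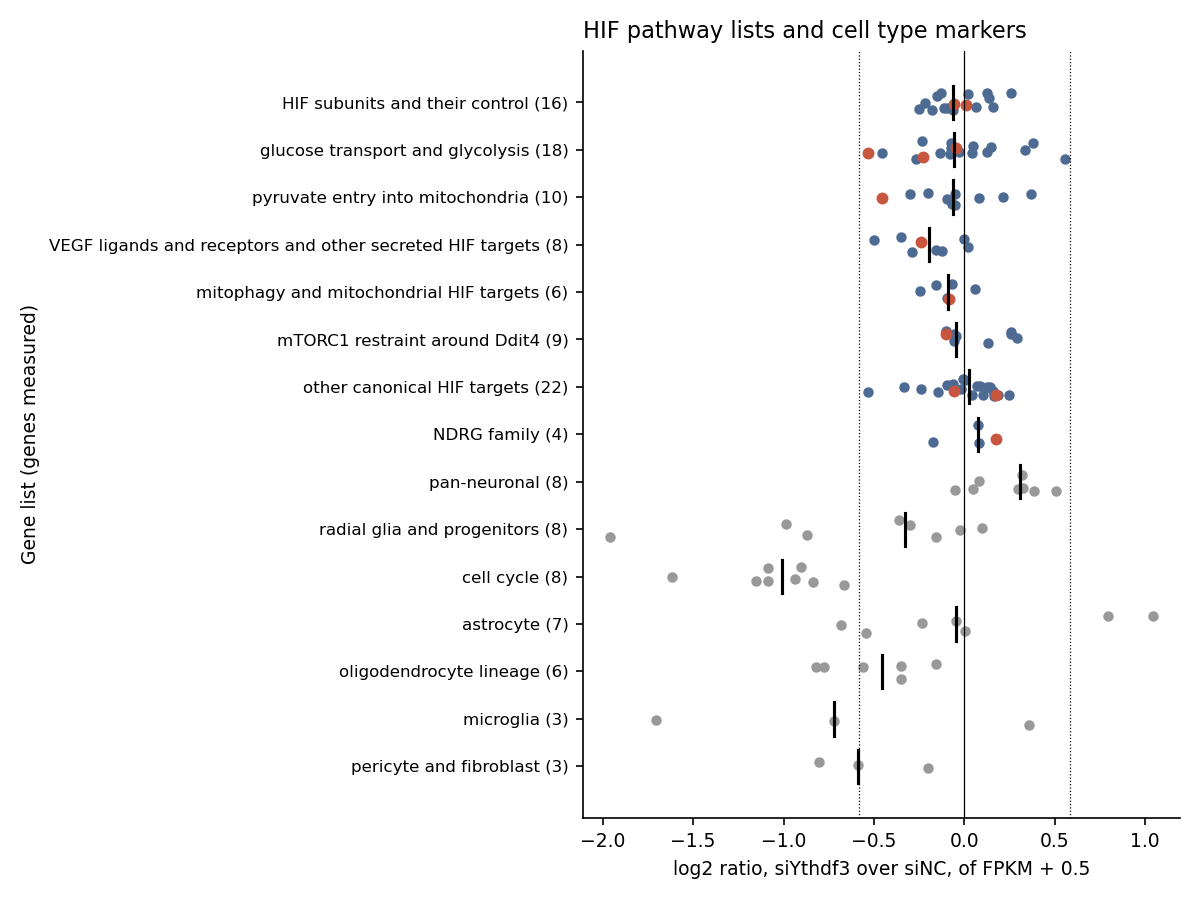
Log2 ratio of siYthdf3 over siNC, of FPKM + 0.5, for each gene whose mean reached 1 FPKM in the HIF pathway lists (blue, with genes of the set of 10 in red) and the cell type marker lists (grey); black bars are medians and dotted lines mark 1.5-fold. The pathway lists stay inside the dotted lines with medians from -0.20 to 0.08, while cell cycle genes have a median of -1.01 and pan-neuronal markers of 0.31.

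Markers of cell types also differed between the libraries. Neuronal markers were present, with 8 of 8 measured and 923 FPKM in sum in siNC against 1059 FPKM in siYthdf3. Their median log2 ratio was 0.31, with 6 intervals above 1 and 1 below. All 8 cell cycle genes had intervals below 1, with a median of -1.01 and sums of 326 FPKM and 163 FPKM. Radial glia and progenitor markers summed to 2039 FPKM and 1378 FPKM, with 6 of 8 intervals below 1 and 0 above. The 7 astrocyte markers went both ways, with 2 intervals on each side of 1. Their sum was 159 FPKM and 225 FPKM, but without Gfap, the astrocyte filament gene, at 68.2 and 141 FPKM, the other 6 summed to 91.1 FPKM and 84.4 FPKM. Oligodendrocyte lineage markers, 7 in the table, summed to 31.1 FPKM and 18.7 FPKM, and 4 of the 6 that passed the filter had intervals below 1. The 6 microglia markers summed to 7.55 FPKM and 3.60 FPKM, with Cx3cr1 at 2 reads in siNC and 0 in siYthdf3. Of the 3 that passed the filter, Aif1 and Tyrobp had intervals below 1. P2ry12 was higher in siYthdf3, at 0.858 FPKM and 1.24 FPKM, with an interval that includes 1. The 5 pericyte and fibroblast markers in the table summed to 5.88 FPKM and 3.88 FPKM, with Lum at 0 reads in siNC and 6 in siYthdf3. The part of these shifts in the lower values of Pgk1, Pdk1, Slc2a1 and Vegfa was not tested, and in such bulk samples fewer cells of a type and less RNA per cell cannot be told apart. Endothelial markers, 6 in the table, summed to 0.853 FPKM in siNC and 0.991 FPKM in siYthdf3, and none reached 1 FPKM. Which cells the Slc2a1 RNA came from was not tested.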

How the data were processed

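Messenger RNA was measured in 1 siNC and 1 siYthdf3 library of rat cortical neurons, grouped by sample title. Libraries were made from TRIzol-extracted RNA with molecular identifiers of 12 random bases, per the labels' protocols. Per the submitters' processing notes, tools included STAR 2.7.6a, Subread 1.5.1 with featureCounts, StringTie 2.1.4, edgeR 3.40.2 and fastp 0.23.2, with no roles. Build, annotation, strand setting and collapsing of identifiers are not stated in the sources used, so reads of overlapping or antisense genes are uncertain. The authors deposited FPKM per gene and library, per the file headers. FPKM times length gave whole reads for 100.0% of values (within 0.05 of a read), which set the depth and intervals; no count test was run. Intervals are too narrow where reads copy 1 molecule.

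The measure was log2 of (siYthdf3 + 0.5)/(siNC + 0.5) in FPKM, for genes whose mean reached 1 FPKM, with a 1.5-fold rule. The 10 genes, the 8 pathway and 8 marker lists and the tests were chosen with earlier results of these data known. Named from each pathway list were genes 1.5-fold apart, or else the 4 with the largest differences; all other genes were picked with their values known. With 2 libraries no likeness of patterns can be formed. The procedure was run on simulated Poisson counts, which hold only the counting error that the intervals assume. The simulation thus does not check the intervals against variation between libraries or copied reads. Alternatives were other pseudocounts, filters, scalings, a length correction and a 2-fold rule. Added after the data were seen were intervals under other scalings and a minimum number of reads. Promoter letters came from RefSeq (GRCr8). Calculations used Python 3.11.15, numpy 2.4.6, pandas 2.3.3, scipy 1.17.1 and matplotlib 3.10.9.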

Additional observations from a re-analysis of the deposited data

How the results depend on the processing

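Among the 10 genes, none passed 1.5-fold under pseudocounts of 0.1 or 1 FPKM, TPM, centring, rescaling without mitochondrial and top 20 genes, or removal of the length trend. All 60 such values stayed within the counting intervals of the main ones, and Hk2 alone changed sign, at 0.0019 under TPM. The median of the 10 stayed negative under every alternative run, from -0.0958 to -0.0461. The median of the wider list changed sign to 0.0023 under TPM. Past 1.5-fold in that list were 2 genes lower with a pseudocount of 0.1 FPKM (Gbe1 at -0.61 and Lox at -0.59), and 1 higher (Aldoc) under TPM and 1 after removal of the length trend. Intervals below 1 were 3 of the 10 under TPM, without Slc2a1, and above 1 was 1, Ndrg1, under TPM and 1 under centring. Under TPM 16.7% of all genes lay below 1 and 25.9% above. No paired analysis was possible because each group has 1 library. Depth limits the genes with few reads: Pdk1 rests on 212 and 222.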
